A study of Macaca fascicularis and Mus musculus with 492 samples.

Results

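Pluripotency is the capacity of a cell to give rise to all lineages of the body, and in mammalian embryos it resides in the epiblast. POU5F1 (also called OCT4, a POU-homeodomain transcription factor), SOX2 (an HMG-box factor that binds DNA together with POU5F1) and NANOG (a homeodomain factor) form the centre of its transcriptional network. PRDM14, a PR-domain zinc-finger protein, and SALL4, a zinc-finger transcription factor, act beside them. L1TD1, an RNA-binding protein derived from a retrotransposon, and LIN28B, an RNA-binding protein that blocks maturation of let-7 microRNAs, act on RNA. The 7 genes were followed here through embryos and cultures of the cynomolgus monkey and, by their same-name genes, of the mouse. All 7 were found by gene symbol in both tables, out of 28797 monkey genes and 26219 mouse genes with values. The monkey genes carry the Entrez gene IDs 102115117 (POU5F1), 102114964 (NANOG), 102140202 (SOX2), 102129763 (PRDM14), 102140093 (SALL4), 102143457 (L1TD1) and 102132012 (LIN28B).

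The data are SC3-seq profiles, a single-cell method that reads the 3' ends of mRNAs, of 492 cells, each deposited as 1 sample in RPM, reads scaled to a fixed library total. The monkey cells were 31 embryonic stem cells (ESCs) and 390 embryo cells. The ESCs were 9 CMK6 cells grown feeder free, 14 CMK6 cells grown on feeder and 8 CMK9 cells grown on feeder, where the feeder was mouse embryonic fibroblasts and the medium held mouse LIF and bFGF. By embryonic day, the embryo gave 43 cells of E06, 35 of E07, 95 of E08, 20 of E09, 46 of E13, 62 of E14, 36 of E16 and 53 of E17. The post-implantation cells came from dissected fragments that held epiblast, amnion, hypoblast and yolk sac endoderm, so not every tissue of those days was sampled alike. The mouse cells were 12 epiblast-like cells (EpiLCs) induced for 2 days with activin A and bFGF, 10 ESCs of the same line kept in 2i and LIF, 24 embryo cells at E6.5 and 25 at E5.5. The mouse embryos had the extraembryonic ectoderm removed, and at E6.5 only the proximal epiblast was taken. Embryos are not named in the labels. Days or cultures, each the mean over cells of 1 class, were therefore compared, and p-values measure the spread between days or cultures. The 3 monkey ESC cultures came from 2 lines.

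Monkey cells held a median of 1879342 reads (range 166742 to 4491539) and mouse cells 2642943 (1004103 to 4158784). E17 was the shallowest group, with a median of 912193 reads. Cell classes were rebuilt by clustering without the 7 genes and named from other markers. In monkey embryos they comprised 140 epiblast-like cells, 31 gastrulating-like cells, 84 trophectoderm-like cells, 54 hypoblast- or endoderm-like cells and 32 extraembryonic-mesenchyme-like cells. A cluster of 32 cells led by DPRX, 31 of them at E06, and a cluster of 17 cells led by SPP1 and T, all at E13 or E14, stayed unnamed. The epiblast-like class was made of 3 clusters, 1 of E16 and E17 cells, 1 of E13 and E14 cells and 1 of E07 to E09 cells. A change between these spans of days is thus also a change of cluster. A cell was counted as positive for a gene at 10 RPM or more. POU5F1 and NANOG have processed pseudogenes in primates, and reads that the authors' counting could have shared with such copies cannot be told apart here.

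All 7 genes were found together in nearly every early and mid-stage epiblast-like cell, and in every ESC. At 10 RPM, 100% of epiblast-like cells were positive for all 7 at E07, E08, E13 and E14, and 80% at E09, where 1 of 5 cells missed LIN28B. At E16 the share with all 7 was 63.6% (14 of 22 cells) and at E17 it was 60% (21 of 35). All 31 ESCs held all 7. Outside the epiblast the genes were lost unequally. SALL4 stayed positive in 100% of gastrulating-like cells of E16 and E17, whereas PRDM14 was positive in none of 10 at E16 and 3 of 18 at E17. The mean number of the 7 genes that were positive per cell was 4.26 in gastrulating-like cells, 4.57 in trophectoderm-like cells, 4.52 in hypoblast- or endoderm-like cells and 2.94 in extraembryonic-mesenchyme-like cells, against 6.80 in epiblast-like cells.

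**Figure D1:**
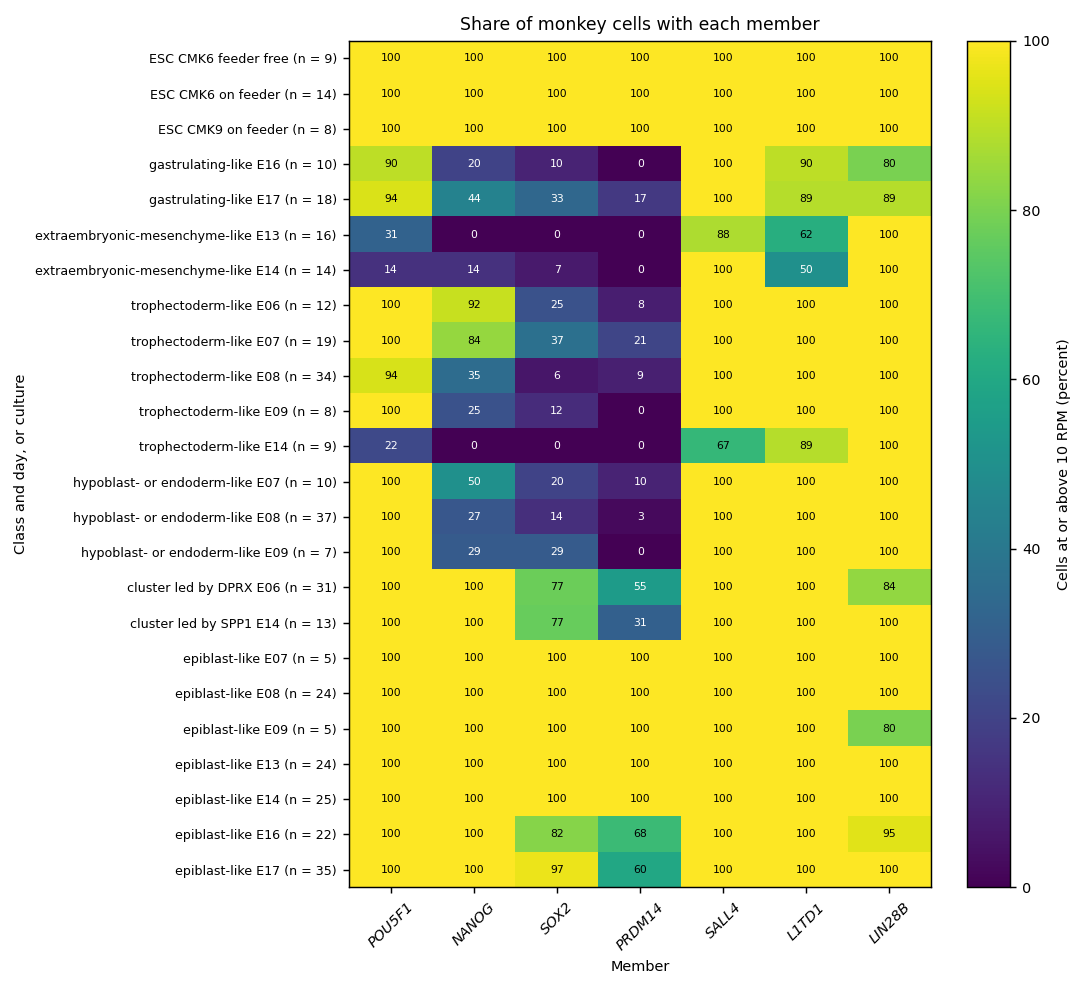
Share of monkey cells at or above 10 RPM (colour, percent) for each of the 7 genes (columns) in each class and day or culture (rows). ESC rows are at 100% and epiblast-like rows at 100% in most cells of the map, down to 60% for PRDM14 at E17, while SOX2 and PRDM14 fall to 0% in trophectoderm-like cells of E14 and LIN28B stays at 100% in extraembryonic-mesenchyme-like cells of E13 and E14.

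The triad of POU5F1, NANOG and SOX2 shows the same loss in single cells. The share of cells positive for all 3 was 100% in epiblast-like cells of E07, E08, E09, E13 and E14, 81.8% at E16 and 97.1% at E17. In gastrulating-like cells it was 10% at E16 and 27.8% at E17. In trophectoderm-like cells it was 25% at E06, 36.8% at E07, 5.88% at E08, 12.5% at E09 and 0% at E14, where 0 of 9 cells were positive. In hypoblast- or endoderm-like cells it was 20% at E07, 2.70% at E08 and 28.6% at E09. None of the 30 extraembryonic-mesenchyme-like cells of E13 and E14 held all 3, against all 49 epiblast-like cells of those days.

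**Figure D2:**
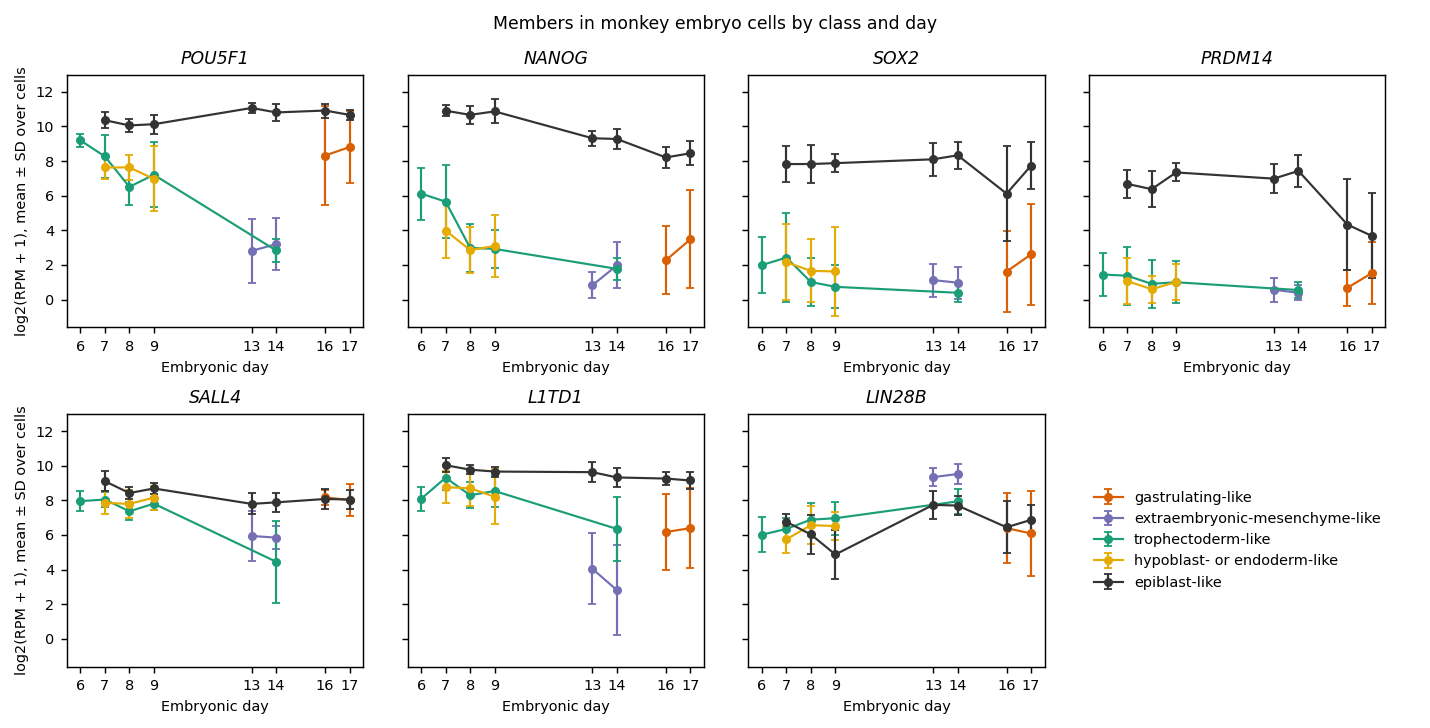
Mean log2(RPM + 1) over cells (points, bars show the SD over cells) of each gene by embryonic day in each monkey class. POU5F1 stays above 10 in epiblast-like cells on every day, while the trophectoderm-like means fall to 2.83 at E14.

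Within the epiblast, the late days E13, E14, E16 and E17 differed from the early days E07, E08 and E09 in most of the 7 genes, in opposite directions. NANOG, SALL4 and L1TD1 were lower in the late days, and POU5F1 and LIN28B were higher. SOX2 and PRDM14 did not pass the test. In limma with Benjamini-Hochberg adjustment over all genes, 5 of the 7 were called at an adjusted p under 0.05, 2 higher and 3 lower, where 37.5% of all 9897 genes tested were called. A share of 5 in 7 is thus to be read against a background in which calls were common. The median difference over all genes was -0.26 on the log2 scale, which comes close to 0 after quantile normalization, and all values below are on that log2(RPM + 1) scale.

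NANOG, which in the mouse is needed to establish the epiblast, showed the widest gap. Its mean level was 9.32, 9.28, 8.21 and 8.45 in the late days E13, E14, E16 and E17, against 10.91, 10.67 and 10.87 in the early days E07, E08 and E09. Its median RPM was 649.7, 614.6, 306.2 and 340.8 in the late days, against 1907, 1522 and 2184 in the early days. All late days lay below all early days, and within the late days E16 and E17 lay below E13 and E14. The late mean was 8.81 ± 0.57 (SD, n = 4 days) and the early mean 10.82 ± 0.13 (n = 3), a difference of -2.01 (SE 0.25, limma adjusted p = 8.689e-05). NANOG stayed above 10 RPM in every epiblast-like cell. The NANOG call is lost where the E06 cluster led by DPRX is counted with the early days (-1.17, limma adjusted p = 0.0894).

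POU5F1 moved the other way and by less. Its mean level was 11.07, 10.81, 10.92 and 10.67 at E13, E14, E16 and E17, against 10.36, 10.06 and 10.13 at E07, E08 and E09. The ranges did not overlap, and the difference was 0.68 (SE 0.14, limma adjusted p = 0.0028). With days of at least 10 cells it was 0.81 and no longer called (limma adjusted p = 0.0507). The background of genes whose late and early days do not overlap was 43%, and 4 of the 7 genes were in that state.

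SALL4 averaged 7.95 ± 0.13 in the late days and 8.74 ± 0.34 in the early days (SD, n = 4 and 3), a difference of -0.79 (SE 0.19, limma adjusted p = 0.00638). L1TD1 averaged 9.34 ± 0.21 and 9.82 ± 0.19 in the late and the early days, a difference of -0.48 (SE 0.16, limma adjusted p = 0.0337). Both genes kept their groups apart, but the call of SALL4 is lost with days of at least 10 cells (-0.47) and the L1TD1 call is lost under many settings, among them quantile normalization, which gives -0.43 (limma adjusted p = 0.0536), and leaving out E14, E16, E17, E07 or E08. LIN28B was at 7.74, 7.70, 6.45 and 6.88 in the late days, against 6.76, 6.03 and 4.87 in the early days. E16 fell below E07, so the groups overlapped. Its difference was 1.302 (SE 0.42, limma adjusted p = 0.0279), and it is 0.79 and not called without E09, a day with 5 epiblast-like cells. It is not called without E08, E13 or E14 either.

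The marker levels of other cell types moved with the epiblast-like days too. The summed level of 10 trophectoderm markers was 113.3, 102.5, 205.1 and 89.5 RPM at E13, E14, E16 and E17, with 2 to 4 of the 10 at a mean of at least 2, against 1202, 1074 and 1300 RPM at E07, E08 and E09, with 5 or 6 of 10. Their part in the result was not tested. Among cells that share the title code MS08, a code in the sample titles whose meaning is not given, 25 late cells and 2 early cells gave differences of -2.41 for NANOG, 0.21 for POU5F1, -0.30 for SALL4, -1.04 for L1TD1 and 0.12 for LIN28B, with no test. Those of POU5F1, SALL4 and LIN28B were thus under the differences between all days, and that of L1TD1 was over it. SOX2 differed by -0.16 and PRDM14 by -1.04.

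SOX2 and PRDM14 became patchy from cell to cell, SOX2 mainly at E16 and PRDM14 at E16 and E17, while the late and early means did not separate. LIN28B also spread widely in places. Its SD over cells was 1.75 in the 16 E16 cells of code MS08 (15 positive) and 1.43 in the 5 E09 cells (4 positive). The difference between late and early days was -0.27 for SOX2 (SE 0.41, limma adjusted p = 0.624) and -1.19 for PRDM14 (SE 0.75, 95% interval -2.81 to 0.42, limma adjusted p = 0.228), and a p that misses the threshold does not show that the days are alike. Neither direction is firm, since without CRIPTO among the naming markers, which leaves E13 and E14 as the late days, the differences were 0.37 for SOX2 and 0.41 for PRDM14. PRDM14 means were 4.33 for E16 and 3.68 for E17, against 6.98 for E13 and 7.43 for E14 (with 6.68, 6.38 and 7.34 for E07, E08 and E09 before them). Its SD over cells was 2.65 at E16 and 2.45 at E17, against 0.52 to 1.03 on the other days. PRDM14 was positive in 68.2% of epiblast-like cells at E16 (15 of 22, exact 95% interval 45.1 to 86.1%) and in 60% at E17 (21 of 35, 42.1 to 76.1%), against 100% on every earlier day. With each cell thinned to 160000 reads, the share of cells with at least 1 PRDM14 read was 72.7% at E16 and 65.7% at E17, against 86.4% and 85.7% before thinning, and it stayed at 100% on the earlier days.

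SOX2 followed a related pattern, centred on E16. Its levels at E16 ran from 0 to 8.78 with a median of 7.02, and at E17 from 1.16 to 9.50. Its SD over cells was 2.73 at E16 and 1.38 at E17, against 0.52 to 1.08 on the other days. The E17 spread lay mainly in code MS11, with an SD of 2.43 over 8 cells (7 positive). It was 0.76 over 18 cells of MS10 and 0.66 over 8 cells of MS61, all positive. It was positive in 18 of 22 cells at E16 and 34 of 35 at E17, and in every epiblast-like cell of the other days. In the 22 E16 cells SOX2 went down as the summed gastrulating-marker level went up (Pearson r = -0.670 over cells of 1 day, a description), and over the 35 E17 cells the same r was -0.361. That marker sum in epiblast-like cells was 444.1 RPM at E16 and 246.6 RPM at E17, against 7.84 at E13 and 17.95 at E14. At E07, E08 and E09, when both genes were positive in every epiblast-like cell, it was 120.3, 97.74 and 44.18 RPM. The summed level of 10 extraembryonic mesenchyme markers was also high at E16 (1133 RPM, 5 of 10 at a mean of at least 2, against 218.9 at E13 and 279.9 at E14) but not at E17 (151.6), and that of 5 fibroblast markers was 857.5 RPM at E16 and 129.6 at E17, against 193.8 and 284.7. Both lists hold COL1A1, COL3A1, DCN and POSTN, so the mesenchyme and fibroblast sums are not separate signals. The part of these cell types in the SOX2 and PRDM14 patterns was not tested.

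The loss of PRDM14 also appeared where days shared a title code, though not with the same size in each. In code MS08, 16 cells at E16 averaged 3.78 and 9 cells at E14 averaged 7.75, a difference of -3.97. In code MS10, 18 cells at E17 averaged 3.16 and 13 cells at E13 averaged 7.03, a difference of -3.87. In code MS61, 8 cells at E17 averaged 5.44 and 10 cells at E13 averaged 6.95, a difference of -1.51, and all 8 E17 cells stayed positive. SOX2 differed by -2.24 in MS08 but by 0.12 in MS10 and -0.26 in MS61, so the lower SOX2 mean was not seen at E17 in these codes. NANOG differed by -1.26, -1.10 and -0.75 in MS08, MS10 and MS61.

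**Figure D3:**
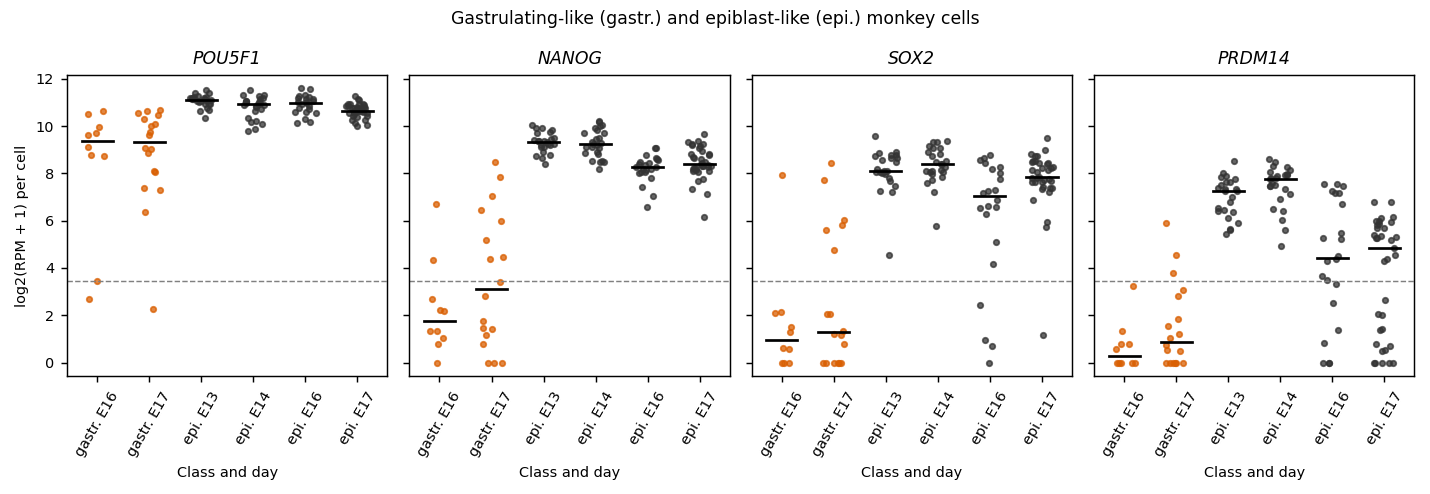
Levels per cell, log2(RPM + 1), in gastrulating-like (gastr.) and epiblast-like (epi.) monkey cells of the later days; each dot is 1 cell, the bar is the median and the dashed line marks 10 RPM. PRDM14 (0 to 7.57) and SOX2 (0 to 8.78) spread widely within the E16 epiblast-like cells, while POU5F1 stays above 10 in them.

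Monkey ESCs were set against both ages of epiblast. Against the late days, none of the 7 genes was called in limma with Benjamini-Hochberg adjustment, where 8.65% of 9880 genes were called, 7.14% higher and 1.52% lower. At an unadjusted p under 0.05 there were 2, POU5F1 and NANOG. POU5F1 was at 9.99 in feeder-free CMK6, 10.49 in CMK6 on feeder and 10.61 in CMK9 on feeder, all below the lowest late day, 10.67, and the difference was -0.50 (SE 0.17, limma adjusted p = 0.0859). Groups that do not overlap were found for 23.9% of all genes. The NANOG cultures were at 8.20, 8.23 and 7.88, below E13 and E14 and about level with E16 (8.21), and the difference was -0.71 (SE 0.27, limma adjusted p = 0.122). SOX2 differed by 0.87 (95% interval -0.06 to 1.79) and PRDM14 by 1.76 (-0.15 to 3.66), intervals that leave room for sizeable differences. Where E13 and E14 alone stood for the late days, as happens when CRIPTO is left out of the naming markers, NANOG (-1.19, limma adjusted p = 0.00986) and LIN28B (-1.18, limma adjusted p = 0.0277) were called lower in ESCs.

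Against the early days, 4 of the 7 genes were called, 1 higher and 3 lower, where 29.9% of 10142 genes were called and 45.3% had cultures and days that did not overlap, as NANOG, SOX2, SALL4 and L1TD1 did. NANOG was again the widest, with a mean of 8.10 ± 0.19 in ESC cultures and 10.82 ± 0.13 in early epiblast-like days (SD, n = 3 each) and a difference of -2.71 (SE 0.15, limma adjusted p = 1.056e-06). SOX2 averaged 8.44 ± 0.15 in ESC cultures and 7.85 ± 0.03 in early days, higher by 0.60 (SE 0.16, limma adjusted p = 0.0184). SALL4 was lower by a difference of -0.71 (SE 0.22, limma adjusted p = 0.0318) and L1TD1 by -0.79 (SE 0.19, limma adjusted p = 0.0114). The calls of these 3 are less firm than that of NANOG. SOX2 loses its call without either on-feeder culture or E08, SALL4 without feeder-free CMK6, CMK9 on feeder, E07 or E09, and L1TD1 with no filter on low values. POU5F1 (0.18, limma adjusted p = 0.479), LIN28B (0.65, limma adjusted p = 0.265) and PRDM14 (0.56, limma adjusted p = 0.460) were not called. Without the feeder-free culture PRDM14 was called higher in ESCs, by 1.33 (limma adjusted p = 0.00813). A list of 5 fibroblast markers summed to 467.6 RPM in feeder-free CMK6, 778.6 in CMK6 on feeder and 621.3 in CMK9 on feeder. In these cultures 3, 2 and 2 of the 5 were at a mean of at least 2. The sum was 34.67, 28.99 and 43.16 RPM in the early epiblast-like days E07, E08 and E09, with 1, 2 and 1 of 5. The part of this list in these differences was not tested. The comparisons share their ESC and epiblast units and are not independent of each other.

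**Figure D4:**
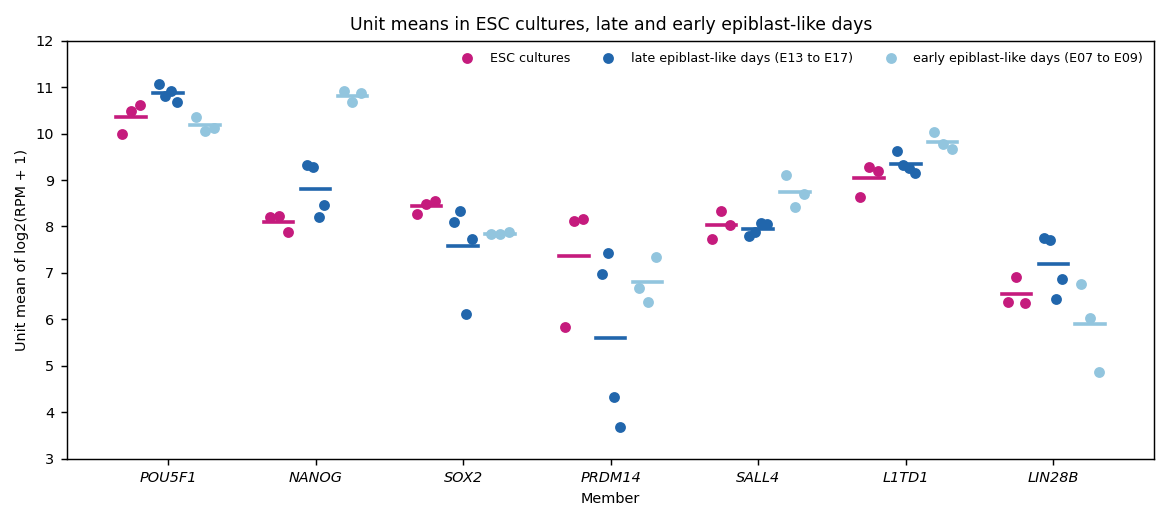
Mean log2(RPM + 1) of each day or culture (1 point each, bars show the group mean) for the 7 genes in ESC cultures, late epiblast-like days and early epiblast-like days. For NANOG the ESC cultures (7.88 to 8.23) and late days (8.21 to 9.32) lie below the early days (10.67 to 10.91), and the low PRDM14 point among the ESC cultures is feeder-free CMK6.

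PRDM14 was the gene that differed most between culture conditions. Feeder-free CMK6 cells ran from 4.59 to 7.39 with a median of 49.5 RPM, against 7.19 to 9.74 and 259.7 RPM in CMK6 cells on feeder. The mean was 5.82 in feeder-free cells and 8.12 in on-feeder cells, a difference of -2.29, and 8 of the 9 feeder-free cells lay below all 14 on-feeder cells of the line. CMK9 cells on feeder were at 264.3 RPM, close to CMK6 on feeder. The other 6 genes differed by -0.04 (NANOG) to -0.66 (L1TD1) between feeder-free and on-feeder CMK6. There was 1 culture per condition and no test. The feeder-free cells all carry the title code MS11 and the on-feeder cells MS05, so the condition and the code cannot be told apart. The SD over feeder-free cells was 1.23 for NANOG and 1.47 for SOX2, against 0.57 and 0.48 in CMK6 on feeder, whereas for L1TD1 it was 0.27 against 0.37 and for LIN28B 0.73 against 0.74. Pearson's r of NANOG with SOX2 was -0.772 over the 9 feeder-free cells, 0.122 over the 14 CMK6 cells on feeder and -0.597 over the 8 CMK9 cells on feeder, as a description.

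Gastrulating-like cells were led by LHX1, EOMES and CER1, which are genes of the primitive streak, mesoderm and definitive endoderm. All 31 kept SALL4, while most had little NANOG, SOX2 or PRDM14. LIN28B was positive in 26 of the 31 (SD 2.37, down to 0), beside 27 for POU5F1 and 28 for L1TD1. In these cells 10 hypoblast or endoderm markers also summed to 1563 RPM at E16 and 1542 RPM at E17 (7 and 5 of 10 at a mean of at least 2), against 151.4 and 113 RPM in epiblast-like cells, and their part in the differences was not tested. The classes were made by clustering, so the differences are given as a description, with no test. At E16, 10 gastrulating-like cells averaged 2.27 for NANOG and 22 epiblast-like cells 8.21, and at E17 18 gastrulating-like cells averaged 3.48 and 35 epiblast-like cells 8.45. NANOG was positive in 20% of gastrulating-like cells at E16 (exact 95% interval 2.52 to 55.6%) and 44.4% at E17 (21.5 to 69.2%), against 100% of epiblast-like cells on both days. Single gastrulating-like cells reached 6.70 at E16 and 8.48 at E17, within the range of the epiblast-like cells. At E16, NANOG was positive in 2 of 4 gastrulating-like cells of title code MS08 and 0 of 6 of MS09.

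SOX2 was 1.62 and 2.61 in gastrulating-like cells of E16 and E17, against 6.12 and 7.74 in epiblast-like cells, and was positive in 10% and 33.3% of them. PRDM14 was 0.68 and 1.53, against 4.33 and 3.68, and was positive in 0% (0 of 10, which allows up to 30%) and 16.7%. POU5F1 was only partly lower. It averaged 8.32 and 8.81 in gastrulating-like cells, against 10.92 and 10.67 in epiblast-like cells, and stayed positive in 90% and 94.4% of them, although single cells went down to 2.67 and 2.25. Its level differed by title code. At E16 it averaged 9.76 in 4 gastrulating-like cells of MS08 and 7.36 in 6 of MS09. The 16 and 6 epiblast-like cells of these codes averaged 10.95 and 10.82. At E17 it averaged 9.41, 9.59 and 5.58 in 11, 4 and 3 gastrulating-like cells of MS10, MS11 and MS13. L1TD1 was 6.17 and 6.40 in gastrulating-like cells, against 9.26 and 9.15. SALL4 differed by 0.09 and -0.03 and LIN28B by -0.05 and -0.79 between gastrulating-like and epiblast-like cells of E16 and E17. Over the 18 E17 gastrulating-like cells, NANOG went with SOX2 (r = 0.770) and with POU5F1 (r = 0.637), as a description. These cells span the codes MS10, MS11 and MS13. The 3 MS13 cells had low means of POU5F1 (5.58), NANOG (0.74) and SOX2 (0.65), so differences between codes enter each r. The 3 gastrulating-like cells of E13 and E14 were too few for a value of their own.

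Trophectoderm-like cells, of the outer layer that gives rise to the placenta, had lower levels of 6 of the 7 genes than epiblast-like cells on each of the 4 days compared, while LIN28B was lower at E07 and higher on the other days. How far each gene was down at each day differed between genes. The class was made of 3 clusters, 1 with the 12 E06 cells and 9 of E07, 1 with 10 cells of E07 and all of E08 and E09, and 1 with the 9 E14 cells and 2 of E16. A change from E06 to E08 or E09, or from these to E14, is thus also a change of cluster, and E07 is split. SOX2 and PRDM14 were already low in the earliest trophectoderm-like cells, at 1.99 and 1.44 at E06. NANOG was still positive in 91.7% of these cells at E06 and 84.2% at E07, then in 35.3% at E08, 25% at E09 and 0% at E14 (0 of 9). Its mean was 6.12, 5.65, 2.99, 2.93 and 1.77 on the same 5 days. POU5F1 lasted longer, with medians of 587.9, 369.0, 91.5, 257.4 and 6.57 RPM at E06, E07, E08, E09 and E14 and a positive share of 100%, 100%, 94.1%, 100% and 22.2%. SALL4 averaged 7.96, 8.05, 7.37 and 7.81 from E06 to E09 and 4.46 at E14, where 66.7% of cells were positive. L1TD1 ranged from 8.09 to 9.31 from E06 to E09 and was 6.35 at E14. LIN28B, at 6.02, 6.35, 6.89, 6.97 and 7.94, did not show this loss.

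As a trend over E06 to E09, which runs from one cluster to the other, NANOG changed by -1.23 per day (SE 0.23, limma adjusted p = 0.0540) and POU5F1 by -0.77 per day (SE 0.19, limma adjusted p = 0.1001). SALL4 (-0.11), L1TD1 (0.03) and LIN28B (0.34) had smaller slopes, and SOX2 and PRDM14 did not pass the filter on low values. None of the 5 genes tested was called by limma, where 0.476% of 8819 genes were called, 0.204% with a falling slope, and 3 of the 5 (POU5F1, NANOG and LIN28B) were under an unadjusted p of 0.05. Both slopes were called without E08 (NANOG -1.11, POU5F1 -0.64) and without E09 (-1.57 and -1.34). In these fits of 3 days, calls were more common over all genes as well, at 320 of 8376 without E08 and 799 of 8224 without E09. All E08 trophectoderm-like cells carry the title code MS02. Within code MS03, which spans E06, E07 and E09, the slopes were -1.04 for NANOG and -0.62 for POU5F1, with no test.

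On the same day, trophectoderm-like cells lay far below epiblast-like cells in SOX2 and NANOG and less so in SALL4. The SOX2 differences were -5.40 at E07, -6.82 at E08, -7.15 at E09 and -7.94 at E14, and the NANOG differences were -5.26, -7.68, -7.94 and -7.50. POU5F1 differed by -2.09, -3.55, -2.92 and -7.98, and SALL4 by -1.06, -1.06, -0.88 and -3.43. LIN28B was about level or higher in trophectoderm-like cells, at -0.41, 0.86, 2.09 and 0.24. At E14 the trophectoderm-like cells carry the title codes MS09 and MS13, and the epiblast-like cells MS08, MS10 and MS61. Class and code thus cannot be told apart in the E14 differences.

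Hypoblast, the primitive endoderm that lines the yolk sac, kept POU5F1, SALL4, L1TD1 and LIN28B while NANOG, SOX2 and PRDM14 were mostly lost. POU5F1 was 7.63 at E07 (10 cells), 7.63 at E08 (37 cells) and 6.97 at E09 (7 cells) in hypoblast- or endoderm-like cells, against 10.36, 10.06 and 10.13 in epiblast-like cells, and was positive in all of them. NANOG was 3.98, 2.86 and 3.09, against 10.91, 10.67 and 10.87, and was positive in 50% (exact 95% interval 18.7 to 81.3%), 27.03% and 28.57%. SOX2 was positive in 20%, 13.5% and 28.6%, and PRDM14 in 10%, 2.70% and 0%. SALL4 differed from epiblast-like cells by -1.25, -0.63 and -0.53, and L1TD1 by -1.27, -1.07 and -1.45. LIN28B changed sides, with differences of -1.01 at E07, 0.54 at E08 and 1.64 at E09. Its mean was 5.75, 6.57 and 6.52 in hypoblast- or endoderm-like cells over these days, against 6.76, 6.03 and 4.87 in epiblast-like cells.

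LIN28B had its highest class means outside the epiblast, in cells like extraembryonic mesenchyme, the connective tissue around the yolk sac and chorion. It averaged 9.34 at E13 (16 cells, 8.004 to 10.07) and 9.52 at E14 (14 cells, 8.396 to 10.37) in extraembryonic-mesenchyme-like cells, against 7.74 (24 cells, 5.84 to 9.10) and 7.70 (25 cells, 6.44 to 8.67) in epiblast-like cells. The medians were 650.9 and 825.4 RPM in extraembryonic-mesenchyme-like cells, against 220.4 and 233.3 RPM in epiblast-like cells. The cell ranges overlapped and the means differed by 1.60 and 1.82. The E14 epiblast-like cells carry the title codes MS08, MS10 and MS61, and nearly all E14 cells of these codes were epiblast-like. The E14 extraembryonic-mesenchyme-like cells thus came almost wholly from other codes, and class and code can hardly be told apart at E14. The other 6 genes were low in the same cells. POU5F1 was 2.81 and 3.20, against 11.07 and 10.81, NANOG was 0.83 and 1.98, against 9.32 and 9.28, and PRDM14 was positive in 0 of 16 and 0 of 14. SALL4, at 5.94 and 5.85, stayed positive in 87.5% and 100% of them. Of the 2 E16 cells of this class, 1 held POU5F1 at 10.5 and NANOG at 7.89, which are levels of epiblast-like cells.

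Cells of the unnamed clusters held POU5F1 and NANOG in every cell and SOX2 and PRDM14 in some. The 31 E06 cells led by DPRX averaged 9.60 for POU5F1, 8.10 for NANOG, 4.97 for SOX2, 3.41 for PRDM14, 8.09 for SALL4, 9.63 for L1TD1 and 4.83 for LIN28B. All 31 were positive for NANOG, which ran from 5.78 to 10.96, 77.4% for SOX2 and 54.8% for PRDM14. Over these cells NANOG went with the summed level of the other epiblast markers (r = 0.845) and with L1TD1 (r = 0.738), and little with read depth (r = 0.110). The 13 E14 cells led by SPP1 and T averaged 10.77 for POU5F1 and 8.56 for NANOG, but 5.46 for SOX2 and 2.38 for PRDM14, which was positive in 30.8% of them. SOX2 in these 13 cells went down as the gastrulating-marker sum went up (r = -0.751).

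A list of 31 other genes of the pluripotency network placed the 7 in context. It shares genes with the epiblast naming markers and was chosen with results of these data known. In late against early epiblast-like days 26 of them were tested, 10 were called higher and 9 lower in limma with Benjamini-Hochberg adjustment, where 13.3% of all genes tested were higher and 24.2% lower, and their median difference was -0.04, against -0.26 over all genes. USP44, a deubiquitinase of the spindle checkpoint, was higher by 4.71 (7.43 in late days and 2.72 in early days), SALL3 by 3.38 and SALL2 by 3.12, both relatives of SALL4. SOX15, a relative of SOX2, was lower, with a difference of -5.59 (2.19 in late days and 7.78 in early days), as were DPPA2 (-4.36) and CBFA2T2 (-3.59), a partner of PRDM14. LIN28A, the paralog of LIN28B, was higher by 0.83, and was singled out after its value was seen.

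In ESC cultures against late days, where 8.65% of all genes were called, 1 gene of the list was higher, FOXD3 (2.25, limma adjusted p = 0.0179), and 3 were lower, GDF3 (-4.18), CRIPTO (-1.01) and TET1 (-0.90). The list median was 0.27 against 0.28 over all genes. FOXD3 loses its call with quantile normalization (limma adjusted p = 0.0686), and CRIPTO (0.0514) and TET1 (0.0651) lose theirs with the log2 of the mean RPM, while GDF3 keeps it in both. Against early days, where 16.2% of all genes were higher and 13.7% lower, 12 of the list were higher, led by USP44 (5.01), OTX2 (3.43) and SALL3 (2.94), and 10 lower, led by SOX15 (-6.94), DPPA2 (-5.63) and GDF3 (-5.63), with a list median of 0.55 against 0.06. In the trophectoderm-like trend, where 0.476% of all genes were called, 14 were tested and MYCN was the 1 called (-0.76 per day, limma adjusted p = 0.0421). That call is lost with quantile normalization (0.0689) and with the log2 of the mean RPM (0.0868).

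Across 24 monkey units (a class and day, or a culture) the 7 genes split into patterns. For POU5F1 the gene most alike among 11725 was CRIPTO, a NODAL co-receptor (Pearson r = 0.961 over units), and IFITM1 was close behind (0.946). CRIPTO is also among the markers that named the epiblast-like class. SOX2 and PRDM14 were alike (0.952) and NANOG and SOX2 less so (0.921). RRAGD led for NANOG (0.945) and SOX2 (0.968), CCL20 for PRDM14 (0.967), KDM5B for SALL4 (0.930) and F11R for L1TD1 (0.910). LIN28B had a negative r over units with each of the other 6, from -0.234 (PRDM14) and -0.246 (SOX2) to -0.674 (SALL4), and its nearest gene, GNAI1, reached 0.796. Over the 140 epiblast-like cells of all days the signs were mixed. There its r was 0.389 with SOX2, 0.260 with POU5F1 and 0.182 with PRDM14. It was -0.287 with SALL4, -0.204 with NANOG and -0.073 with L1TD1. The units share classes and days, so these values are descriptions.

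In the mouse (GRCm38/mm10, GENCODE vM21) the genes lie at chr17:35506018-35510772 (Pou5f1, plus strand), chr6:122707489-122714633 (Nanog, plus), chr3:34650405-34652461 (Sox2, plus), chr1:13113457-13127163 (Prdm14, minus), chr2:168748332-168767943 (Sall4, minus), chr4:98726734-98738480 (L1td1, plus) and chr10:45376620-45486395 (Lin28b, minus). The embryo clusters were 14 visceral-endoderm-like cells of E5.5 and E6.5, 10 E6.5 cells led by T, the primitive streak gene, 9 E6.5 cells led by Igkc, and 16 E5.5 epiblast-like cells. The clusters led by T and by Igkc stayed unnamed, and the cells led by Igkc hold immunoglobulin genes among their leading genes. Each culture is 1 sample, and each of E5.5 and E6.5 is 1 day, so values are given with no test. Both cultures carry the title code MS61, the E5.5 cells MS11 and the E6.5 cells MS77.

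EpiLCs, a model of the formative epiblast, kept Pou5f1 and lost most Nanog relative to 2i/LIF ESCs. Pou5f1 was 8.14 in 12 EpiLCs and 8.10 in 10 ESCs. Nanog ran from 0.57 to 5.94 with a median of 3.72 in EpiLCs, against 4.04 to 9.67 and a median of 8.51 in ESCs, and was positive in 58.3% (exact 95% interval 27.7 to 84.8%) and 100%. Sox2 was 4.87 in EpiLCs and 8.86 in ESCs, and was positive in 75% and 100%. Prdm14 was positive in none of 12 EpiLCs, which allows up to 25%, and in 4 of 10 ESCs (40%, exact 95% interval 12.2 to 73.8%). Lin28b was 5.21 in EpiLCs and 3.26 in ESCs, and Sall4 was 7.16 and 7.74. Over the 22 cultured cells Nanog and Sox2 went together (r = 0.733), a value that spans both cultures.

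In the embryo, visceral-endoderm-like cells had Nanog at 0.13 at E5.5 and 0 at E6.5, Pou5f1 at 1.80 and 1.24 and Lin28b at 2.29 and 0.18, against 2.85, 7.36 and 5.28 in E5.5 epiblast-like cells. Sall4 stayed at 8.32 and 9.20 in visceral-endoderm-like cells, against 8.35, and was positive in all mouse cells. The E6.5 cells led by T had Pou5f1 at 7.98 and Sall4 at 9.30 but Nanog at 1.94, Sox2 at 3.75 and L1td1 at 4.01, against 7.36, 8.35, 2.85, 6.59 and 8.89 in E5.5 epiblast-like cells of another day and title code. The E6.5 cells led by Igkc, of the same day and code as those led by T, had Nanog at 5.46, positive in 77.8%. Their Sox2 ran from 1.22 to 8.32 over cells, against 0.71 to 7.37 in the cells led by T. Pou5f1 ran from 5.79 to 8.75, against 6.88 to 8.78, and L1td1 from 6.21 to 8.44, against 0 to 7.26. Prdm14 was at or under 0.33 in every embryo cluster and positive in no embryo cell.

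**Figure D5:**
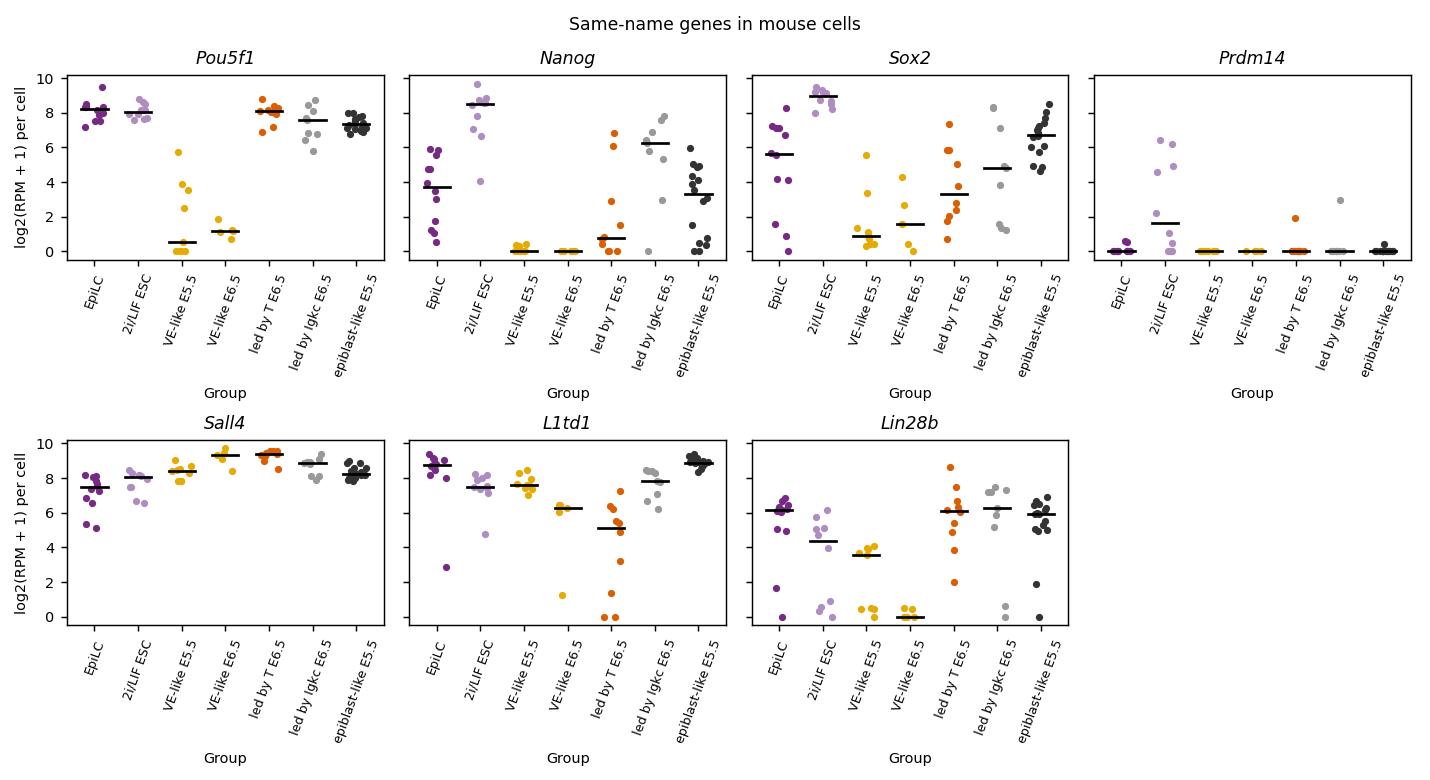
Levels per cell, log2(RPM + 1), of the 7 mouse genes in cultures and embryo clusters; each dot is 1 cell. Nanog in EpiLCs (median 3.72) lies mostly below 2i/LIF ESCs (median 8.51), and no cell outside the ESCs reaches 10 RPM of Prdm14.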

How the data were processed

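The authors deposited RPM values, 1 table per species with a row per gene and a column per cell. The submitters' processing notes list TopHat 1.4.1, Cufflinks 2.2.0 and cutadapt 1.3 without their roles, and the build mm10. Builds in the tables, per the file headers, are mm10 for mouse and macFas5 for monkey. The monkey table has 29095 rows, of which 298 hold no value, and 37 mouse columns match no sample and were not used. RPM steps gave reads per cell (at least 99.6% of low values within 0.1 of a whole read), used for depth and thinning. A separate check did not accept the deposited columns as whole reads, so no count model was fitted.

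Levels are log2(RPM + 1). Embryo cells were clustered without the 7 genes on 2000 variable genes, with scanpy 1.11.5 and igraph 0.11.9 (12 principal components, 10 neighbours, resolution 1 in monkey; 8, 8 and 1.5 in mouse). A cluster was named when over 50% of the detected markers of 1 class, at least 3, were raised by 1 (log2) at a mean of at least 3, and its 10 leading genes held no more markers of another class. This rule, and reading TDGF1 as CRIPTO and TBXT as T, were chosen after clusters were seen. No cell was removed and no doublet caller was run; the highest correlation between any 2 cells was 0.921 in monkey and 0.853 in mouse.

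Means per day or culture of at least 5 cells were tested with limma 3.58.1 (R 4.3.3) on genes whose mean reached 2 in 3 or more units, with Benjamini-Hochberg adjustment over all genes. The scripts were tested on simulated data: of 100 genes changed by 1.5 (log2), 50% were recovered for late against early days. Shares have exact Clopper-Pearson 95% intervals, and a count of 0 allows 3 cells of the total; both cover counting error only. Python 3.11.15, numpy 2.4.6, pandas 2.3.3, scipy 1.17.1 and matplotlib 3.10.9 were used. The 7 genes are all described; other genes named are the 3 of the network list with the largest called difference per direction and the 3 most alike, of which some are printed, and LIN28A, added after its value was seen. Members and lists were chosen with earlier results of these data known. DPPA2, DPPA4, GDF3, CRIPTO, FOXD3, USP44 and UTF1 are among the genes that stand in both the network list and the epiblast naming markers.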

Additional observations from a re-analysis of the deposited data

Results flagged for a closer look

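In 3 of 35 groups of 4 to 10 values the lowest value stood further from the rest than Dixon's 95% critical value, and chance flags about 1 in 20 groups. A group was either 4 day means of epiblast-like or trophectoderm-like cells, or 8 to 10 cells of 1 culture. All 3 flagged groups were groups of cells. The lowest of 8 CMK9 cells on feeder had NANOG at 6.74 on the log2(RPM + 1) scale, and the next had 7.72. Of the 10 mouse 2i/LIF ESCs, the lowest had Nanog at 4.04 (the next 6.68), and the lowest in L1td1 was at 4.76 (the next 7.13).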

How the results depend on the processing

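For the 7 genes, 246 of 275 recomputed values were scored as unchanged, as were 136 of 160 with 1 day or culture left out. Where a test was run, unchanged means the same direction and the same side of the threshold. Differences within 1 title code had no test, so for them no side of the threshold was compared. The 246 also include monkey clustering at resolution 1.5 and clustering with the 7 genes kept in. Both gave the same number of called genes as the results above in each comparison. They are thus no separate check, and 246 overstates how stable the values were. Genes called in late against early epiblast-like days were 3715, and 2073 with a pseudocount of 10, 788 with days of at least 10 cells and 2550 to 3651 with 1 day left out. For ESC cultures against late days they were 855, and 113 with no filter on low values, 429 with quantile normalization, 390 with a pseudocount of 10, 503 with the log2 of the mean RPM, 12 with units of at least 10 cells and 146 (without CMK6 on feeder) to 656 with 1 unit left out. Against early days they were 3031, and 1822 with a pseudocount of 10 and 1809 (without CMK6 on feeder) to 2226 with 1 unit left out. For the trophectoderm-like trend they were 42, and 0 with no filter, 1 with quantile normalization, 1 with a pseudocount of 10, 0 with the log2 of the mean RPM, 799 with days of at least 10 cells, 90 with thinned cells and 1 (without E06) to 799 (without E09) with 1 day left out; where limma called 0, the genes at an unadjusted p under 0.05 were 2963 and 1500. The share of calls that were higher was 35.6% in late against early days, 51.8% with quantile normalization and 53.5% with the log2 of the mean RPM; against late days it was 82.5% in ESC cultures, 55.2% and 63.4%. The SOX2 difference of late from early days turned to 0.58 with the E06 cluster counted as epiblast-like, to 0.37 without CRIPTO and to 0.21 without E16 (-0.53 without E14), and the PRDM14 difference to 0.41 without CRIPTO. In ESC cultures against late days the SALL4 difference turned to -0.047 with quantile normalization, -0.078 without CMK6 on feeder (to 0.22 without feeder-free CMK6) and -0.20 within code MS11, where the LIN28B difference was 0.10. The L1TD1 trend was -0.38 without E06 and 0.14 without E07. With 1 read in place of 10 RPM, cells held 5.94 of the genes in extraembryonic-mesenchyme-like, 6.00 in gastrulating-like, 6.48 in hypoblast- or endoderm-like, 6.35 in trophectoderm-like and 4.57 in mouse visceral-endoderm-like cells. The cause was not tested. No paired analysis was possible because the labels give days and cultures no shared replicate number; title codes that span groups gave differences of cell means without a test. A count test in edgeR was not run because whole reads were not fully recovered, and ESC cultures against early days could not be fitted with units of at least 10 cells or within 1 title code. At E17 the shallowest cell, with 166742 reads, places 10 RPM near 1 or 2 reads, which limits its shares.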
